A study of Mus musculus with 16 samples.

Results

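Bacteroides, the family Tannerellaceae (Parabacteroides and close relatives without a genus name) and Akkermansia were followed in the colons of mice with and without Mertk, a receptor kinase through which macrophages take up dying cells, on water and after colitis induced by dextran sulfate sodium (DSS). They were taken from a 16S rRNA gene table by the deposited taxonomy, as every amplicon sequence variant (ASV, a distinct 16S sequence) named to the family Bacteroidaceae, the family Tannerellaceae or the genus Akkermansia. This gave 47 of 1901 ASVs, of which 28 were Bacteroides, 14 Parabacteroides, 3 Tannerellaceae without a genus name and 2 Akkermansia. Only 9 of the 47 carried a species name. The 47 ASVs held 4.87% of all counts.

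The 16 mice formed 4 groups of 4: wild-type (WT) and MERTK knockout (KO) mice, all on the C57BL/6J background and 8 to 10 weeks old, which drank sterile water alone or with 2.5% DSS for 7 days before the distal colon was taken on day 8. The sample titles number the mice as individuals, and p-values measure the spread between them. The labels give no cage, litter or batch, so a shared cage and the genotype or treatment cannot be told apart, and bacterial counts do not show whether Mertk was absent. The labels describe colon pieces rinsed of feces, but in a protocol for RNA, and whether it applies to the bacterial libraries is not given. Every library held 96469 counts, so a count of 0 allows a share of up to 0.00311% (3 counts, counting error only). Shares are percent of all counts in a library and are relative, so that a rise of other bacteria lowers them.

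Bacteroides and Parabacteroides are anaerobes of the phylum Bacteroidota that take up plant and host polysaccharides through sets of outer membrane proteins encoded together in their genomes, and many can use the sugar chains of mucin, the glycoprotein of intestinal mucus. Akkermansia belongs to another phylum, Verrucomicrobiota, and its best known species, Akkermansia muciniphila, grows on mucin as a source of carbon and nitrogen. DSS is a sulfated polysaccharide that damages the mucus layer and the epithelium of the mouse colon. The genome of a bacterium can hold several copies of the 16S gene that differ slightly, so several ASVs can come from the same strain and are not independent of each other.

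Bacteroides was the most abundant of the 4 genus-level groups. On water its share was 2.39%, 2.11%, 1.61% and 3.10% in the 4 WT mice and 1.13%, 2.39%, 2.92% and 3.25% in the 4 KO mice. On DSS it was 4.10%, 4.47%, 11.4% and 4.96% in WT mice and 1.87%, 2.37%, 4.54% and 2.43% in KO mice. All 4 WT mice on DSS lay above the 4 on water, mouse 3 far above the others, while the groups of KO mice overlapped. In order of the means, WT mice on DSS (6.22% ± 3.45, SD, n = 4) came before KO mice on DSS (2.80% ± 1.19), KO mice on water (2.42% ± 0.933) and WT mice on water (2.30% ± 0.623). The difference between WT and KO mice on DSS did not pass (log2 fold change -1.15, SE 0.45, adjusted p = 0.0669), though it did without KO DSS mouse 3 (log2 -1.48, adjusted p = 0.0361). The last 3 groups did not differ beyond their spread (adjusted p = 0.835 for DSS in KO mice and 0.968 for genotype on water). Adjusted p-values here and below are from edgeR's quasi-likelihood test, with Benjamini-Hochberg adjustment over all 122 genus-level groups or all 1056 ASVs tested. The DSS effect in WT mice (log2 fold change 1.43, SE 0.45, adjusted p = 0.0192) did not pass without WT water mouse 3 or WT DSS mouse 3 (adjusted p = 0.0662 and 0.119).

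Parabacteroides was the second of the groups in WT mice and was lower in KO mice on water. In WT mice it held 1.26% ± 0.371 of counts on water and 1.63% ± 0.591 on DSS. In KO mice it held 0.380% ± 0.271 on water and 0.640% ± 0.281 on DSS. The 4 KO mice on water (0.0736% to 0.674%) lay below the 4 WT mice on water (0.873% to 1.73%), 3.31-fold in the means (adjusted p = 0.0359). That call was lost with median-ratio size factors, centred log-ratios and the replicate block (adjusted p = 0.0759, 0.153 and 0.0649), and without WT water mouse 3 or 4 or KO water mouse 1 (0.0657, 0.0894 and 0.0812). On DSS the difference between genotypes did not pass (log2 fold change -1.35, SE 0.61, adjusted p = 0.0990). Tannerellaceae without a genus name, nearly all of it ASV85, was not counted in any WT water mouse and held 0.506% ± 0.308 in the KO water mice (at least 163-fold more, adjusted p = 2.48e-06). As a family, Tannerellaceae held 1.26% ± 0.371 and 0.886% ± 0.518 in the same groups, a difference within the spread between mice (adjusted p = 0.522 over 58 families), so the family total did not show that its members differed.

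Akkermansia was almost absent from mice on water. In all 8 water mice together it had 3 counts, all in KO mouse 3 and all of ASV1600. On DSS it held 0.0124%, 0.0301%, 0.0342% and 0.0612% in WT mice and 0.431%, 0.650%, 0.594% and 1.39% in KO mice. Each KO mouse on DSS lay above each WT mouse on DSS, 22.2-fold in the means (log2 fold change 4.47, SE 0.96, adjusted p = 0.00475). The rise passed within WT mice (adjusted p = 0.00109), on 12 to 59 counts per mouse, and within KO mice (adjusted p = 7.75e-05). No fold is given for KO mice because their water mean lay under 3 counts. A difference in DSS effect between genotypes did not pass (interaction log2 1.66, SE 3.13). With limma on centred log-ratios it passed (log2 3.02, adjusted p = 0.0258).

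Of these 4 groups, 3 passed for DSS in WT mice (32.0% of all 122 genus-level groups did) and 1 for DSS in KO mice (32.8%). Between genotypes 2 passed on water (40.2%) and 2 on DSS (20.5%), and 1 passed in the test of a difference in DSS effect between genotypes (9.02%). With 4 groups, these counts say little against those shares.

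**Figure D1:**
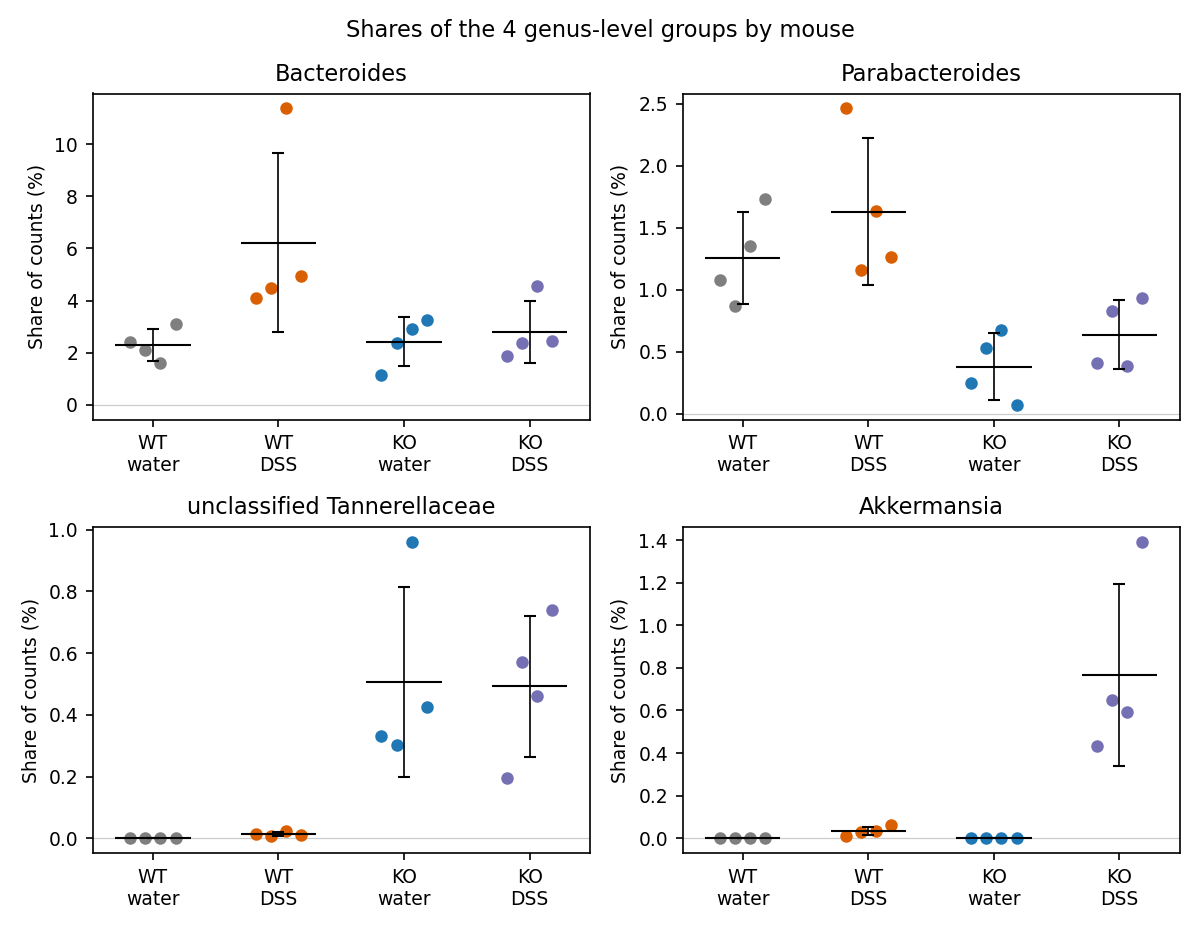
Share of counts (percent) of Bacteroides, Parabacteroides, Tannerellaceae without a genus name and Akkermansia in each of 16 mice, where each point is a mouse, the line the group mean and the bar 1 SD. Bacteroides rose in WT mice on DSS, with mouse 3 at 11.4%, and Akkermansia was highest in KO mice on DSS, at 0.431% to 1.39%.

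On water the genotypes carried different ASVs of the same genera, about as often as over the whole table. Of the 47 ASVs, 18 had counts on water in WT mice and none in KO mice, 12 in KO mice and none in WT mice, 5 in both and 12 in neither. The 5 shared ones were ASV7, ASV57, ASV59 and ASV289 of Bacteroides and ASV177, named Parabacteroides goldsteinii. They held 34.6% ± 5.09 of the counts of the 47 ASVs in WT mice and 68.0% ± 8.63 in KO mice. Over the whole table, ASVs found on water in both genotypes held 35.8% ± 1.57 of all counts in WT water mice and 50.1% ± 4.52 in KO water mice. As shares of the 47, 38.3% were found in WT mice alone, 25.5% in KO mice alone and 10.6% in both, against 36.4%, 23.9% and 17.1% of all 1901 ASVs.

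Of the 47 ASVs, 31 passed the filter of at least 10 counts and counts in at least 3 libraries, and the other 16 held 152 counts in all. Between KO and WT mice on water, 10 of the 31 were higher in KO mice and 15 lower, or 80.6% against 52.8% of all ASVs tested (20.8% higher and 32.0% lower). An ASV found in a single genotype can pass the filter only through that genotype. The median log2 fold change was -2.74 over the 31 and -0.18 over all ASVs tested. The 6 that did not pass were ASV7, ASV57, ASV59, ASV102, ASV577 and ASV927.

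The ASVs of WT mice included the 3 named Bacteroides sartorii and 2 named Bacteroides caecimuris, both species described from the mouse cecum. ASV84 (Bacteroides sartorii) had 547, 583, 217 and 754 counts in the WT water mice against none in their KO counterparts, at least 175-fold lower (adjusted p = 2.15e-06). The other 2 ASVs of that name followed it: over the 8 WT mice ASV84 made up 59.5% to 74.3% of Bacteroides sartorii counts, ASV223 13.7% to 27.4% and ASV332 8.88% to 13.9%. ASV93, the leading Parabacteroides of WT mice, had 371, 430, 812 and 1163 counts in them and none in the KO water mice (at least 231-fold lower, adjusted p = 1.51e-05). ASV113 (182 to 409 counts) and ASV152, named Parabacteroides gordonii (61 to 134 counts), showed the same pattern (adjusted p = 1.18e-05 and 0.000249). Also lower in KO mice were ASV162, ASV197, ASV240, ASV330, ASV364 and ASV379 of Bacteroides, with at most 374 counts in a WT mouse on water and none in a KO mouse on water. ASV330 and ASV364 had counts in only 2 of the 4 WT water mice, and their calls were lost with centred log-ratios (adjusted p = 0.151 and 0.122).

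KO mice on water had ASV85, with 321, 292, 927 and 412 counts, and ASV122 (Parabacteroides), with 164, 384, 465 and 57, neither of which had a count in WT mice on water (adjusted p = 4.06e-06 and 0.000864). The rarer ASV255 and ASV459 of Bacteroides and ASV463 of Parabacteroides had counts in all 4 KO water mice as well, 5 to 127 per mouse. ASV487 (Bacteroides) was called higher in KO mice (adjusted p = 0.0409) on 94 counts in KO water mouse 4 alone, without which it had none.

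By effective number, Bacteroides was spread over fewer ASVs in each KO mouse than in each WT mouse of the same treatment. That difference did not pass after adjustment. The plain number of Bacteroides ASVs with a count was 11 to 13 in WT and 8 to 10 in KO mice on water. On DSS this number overlapped, at 15 to 18 in WT and 13 to 17 in KO mice. The effective number of Bacteroides ASVs (the exponential of the Shannon index within the genus) on water was 6.75 ± 0.674 in WT and 3.75 ± 0.219 in KO mice, and on DSS 6.91 ± 1.25 in WT and 4.57 ± 0.685 in KO mice. The groups did not overlap in either treatment (two-sided exact permutation p = 0.0286 each, the smallest that 4 against 4 mice allow), but with adjustment over the 20 tests of composition within these taxa p was 0.0714, as for all 8 tests whose groups did not overlap. ASV7, the most abundant Bacteroides ASV, held 29.0% ± 7.80 of the genus in WT and 42.7% ± 13.2 in KO mice on water, with groups that overlapped (exact permutation p = 0.200).

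**Figure D2:**
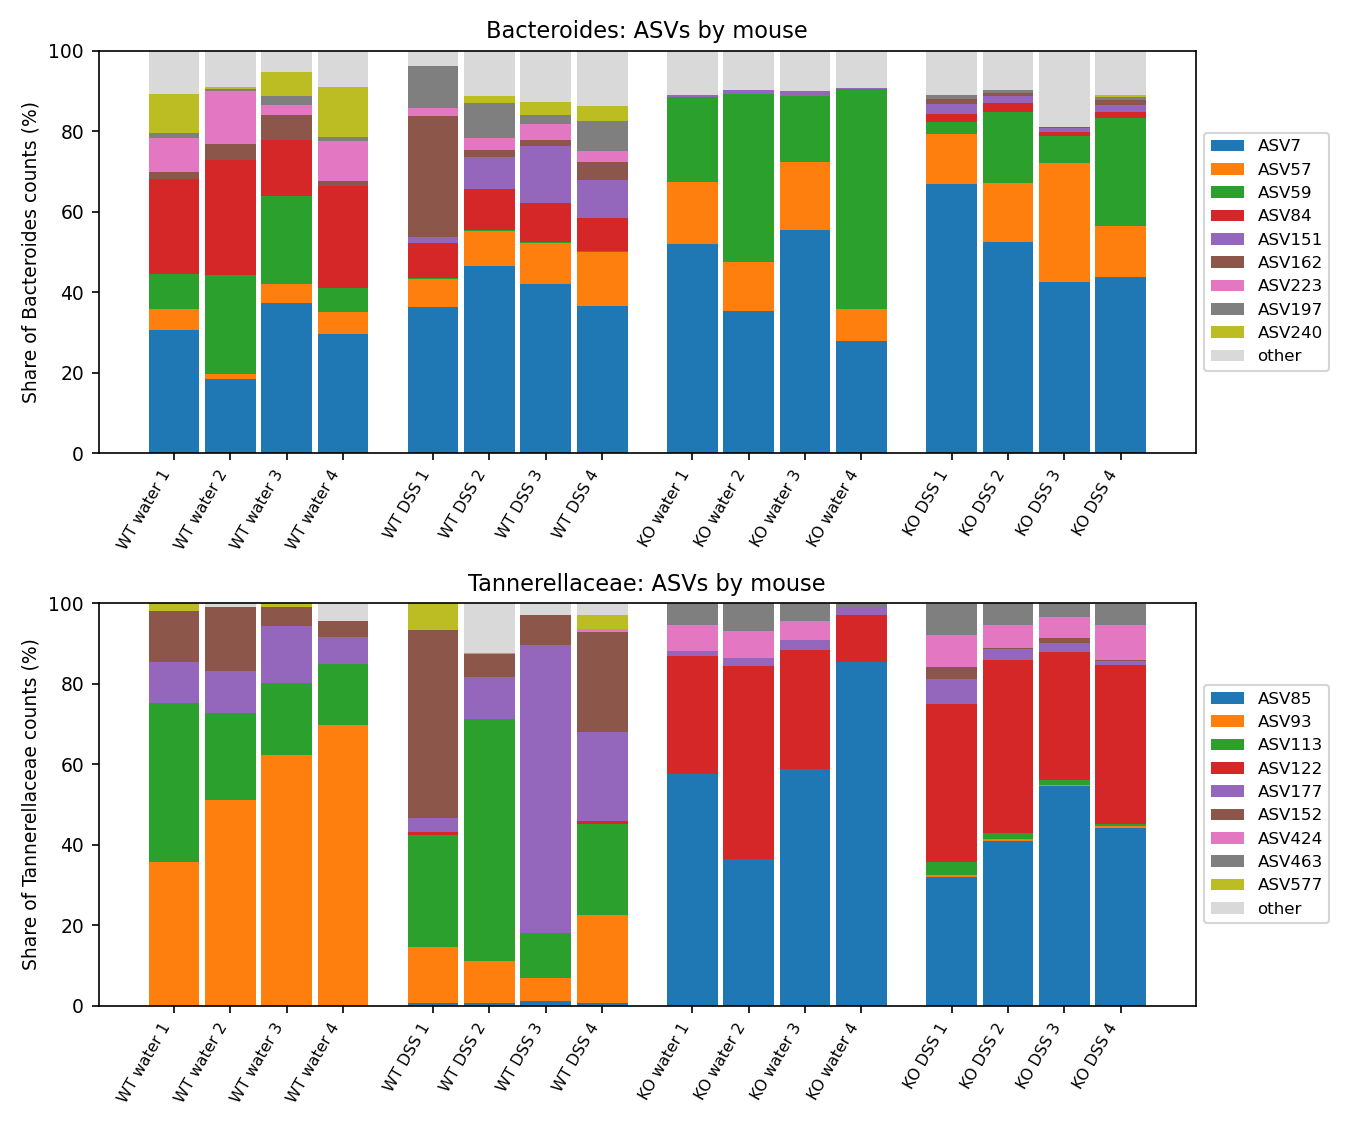
Stacked bars of the share of Bacteroides counts (top) and of Tannerellaceae counts (bottom), in percent, held by the 9 most abundant ASVs of each and by the others, in each mouse. Tannerellaceae is made mostly of ASV93, ASV113, ASV152 and ASV177 in WT mice and of ASV85 and ASV122 in KO mice, and the ASV59 share of Bacteroides is under 0.2% in all 4 WT mice on DSS.

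ASVs found on water in a single genotype had, by that definition, no count in water mice of the other genotype. In DSS mice of the other genotype most of them were present at a low level or not at all. The 18 ASVs found on water in WT mice alone summed to 3.47% ± 0.955 of counts in WT mice on DSS and to 0.128% ± 0.0186 in KO mice on DSS. For the 14 of them with a mean of at least 10 counts in WT mice on DSS, the mean in KO mice on DSS was 0% to 7.39% of that in WT mice on DSS, with a median of 2.48%. Of the 18, 17 had a count in WT mice on DSS and 10 in KO mice on DSS. Of all 692 ASVs of this kind in the table, 358 and 130 did. Those 692 summed to 52.2% ± 5.29 of counts in WT mice on DSS and to 3.15% ± 0.569 in KO mice on DSS. Whether the 18 differ from the others in this was not tested. In the other direction, over 9 ASVs found on water in KO mice alone, the median was 2.53%. ASV151 was the exception, with a mean in WT mice on DSS at 1437% of that in KO mice on DSS, and the other 8 lay at 0% to 8.47%. Whether these counts came from live bacteria of those mice or passed between samples or libraries was not tested. As a measure of what rests on them, results are also given with traces set to 0, where an ASV was set to 0 in the DSS mice of a genotype if its mean there came to less than 5% of the other genotype's DSS mean (6 of the 47 ASVs in WT and 8 in KO mice), and with that limit at 10% (7 and 12).

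In WT mice on DSS the Bacteroides ASVs ASV7 and ASV57 rose, ASV151, which WT water mice lacked, appeared, and ASV59 fell to a few counts. ASV7 went from 709, 376, 577 and 885 counts to 1441, 2001, 4604 and 1744, and ASV57 from 116, 23, 73 and 163 to 274, 381, 1132 and 649. No DSS mouse overlapped a water mouse in either, and the means rose 3.84-fold and 6.50-fold (adjusted p = 0.0226 and 0.0301). ASV151 had no count in WT water mice and 53, 345, 1557 and 459 on DSS. It was at least 201-fold higher there (adjusted p = 0.000237), and at least 95.2-fold without DSS mouse 3. ASV289 went from 0, 0, 0 and 2 counts to 11, 99, 302 and 115 (adjusted p = 0.00470), and ASV197 rose 13.4-fold to 0.359% (adjusted p = 0.0122).

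ASV59 moved the other way. WT water mice had 202, 506, 340 and 182 counts of it and WT DSS mice 4, 7, 13 and 9, 37.3-fold lower (log2 fold change -5.20, SE 0.91, adjusted p = 0.00123). Within Bacteroides its share went from between 6.08% and 24.8% on water to between 0.101% and 0.188% on DSS, a measure that a rise of the genus as a whole does not change. ASV93, the leading Parabacteroides of WT mice, went from 0.719% to 0.210% of counts, which did not pass (adjusted p = 0.145), and from 54.7% ± 14.8 to 13.0% ± 6.78 of Parabacteroides counts, without overlap (exact permutation p = 0.0286, adjusted p = 0.0714). On DSS the leading Parabacteroides ASV differed between mice. ASV152 reached 1117 counts in DSS mouse 1, ASV113 678 in mouse 2 and ASV177 1147 in mouse 3, and none of the 3 passed. It differed on water as well, where ASV113 led in mouse 1 with 409 counts against 371 of ASV93.

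In all, 9 of 31 ASVs rose and 1 fell in WT mice, or 32.3%, against 16.9% of all ASVs tested (7.86% higher and 9.0% lower). The median log2 fold change was 1.94 over the 31 and 0 over all. The other 3 risers, ASV85, ASV122 and ASV255, were ASVs of KO mice that reached 0 to 18 counts per WT DSS mouse. They and ASV102 (Akkermansia) had no count in WT water mice, so with traces set to 0 no count was left to call in WT mice. With traces set to 0, Bacteroides was the only called group of the 3. With the mouse number as a block, 6 ASVs passed, and ASV7, ASV57, ASV122 and ASV197 did not (adjusted p = 0.0539, 0.0663, 0.0847 and 0.0594). ASV7 and ASV57 also did not pass without DSS mouse 3 (adjusted p = 0.0662 and 0.0782), nor ASV57 without water mouse 1, 2 or 3 (0.0520, 0.0561 and 0.0683). With no filter on low counts ASV7, ASV57 and ASV197 did not pass (adjusted p = 0.107, 0.0824 and 0.0574). ASV84, the second Bacteroides ASV of WT water mice, did not pass for DSS in WT mice (1.07-fold higher, adjusted p = 1). WT DSS mouse 3 held the highest count of 15 of the 23 named ASVs found in WT mice on DSS.

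**Figure D3:**
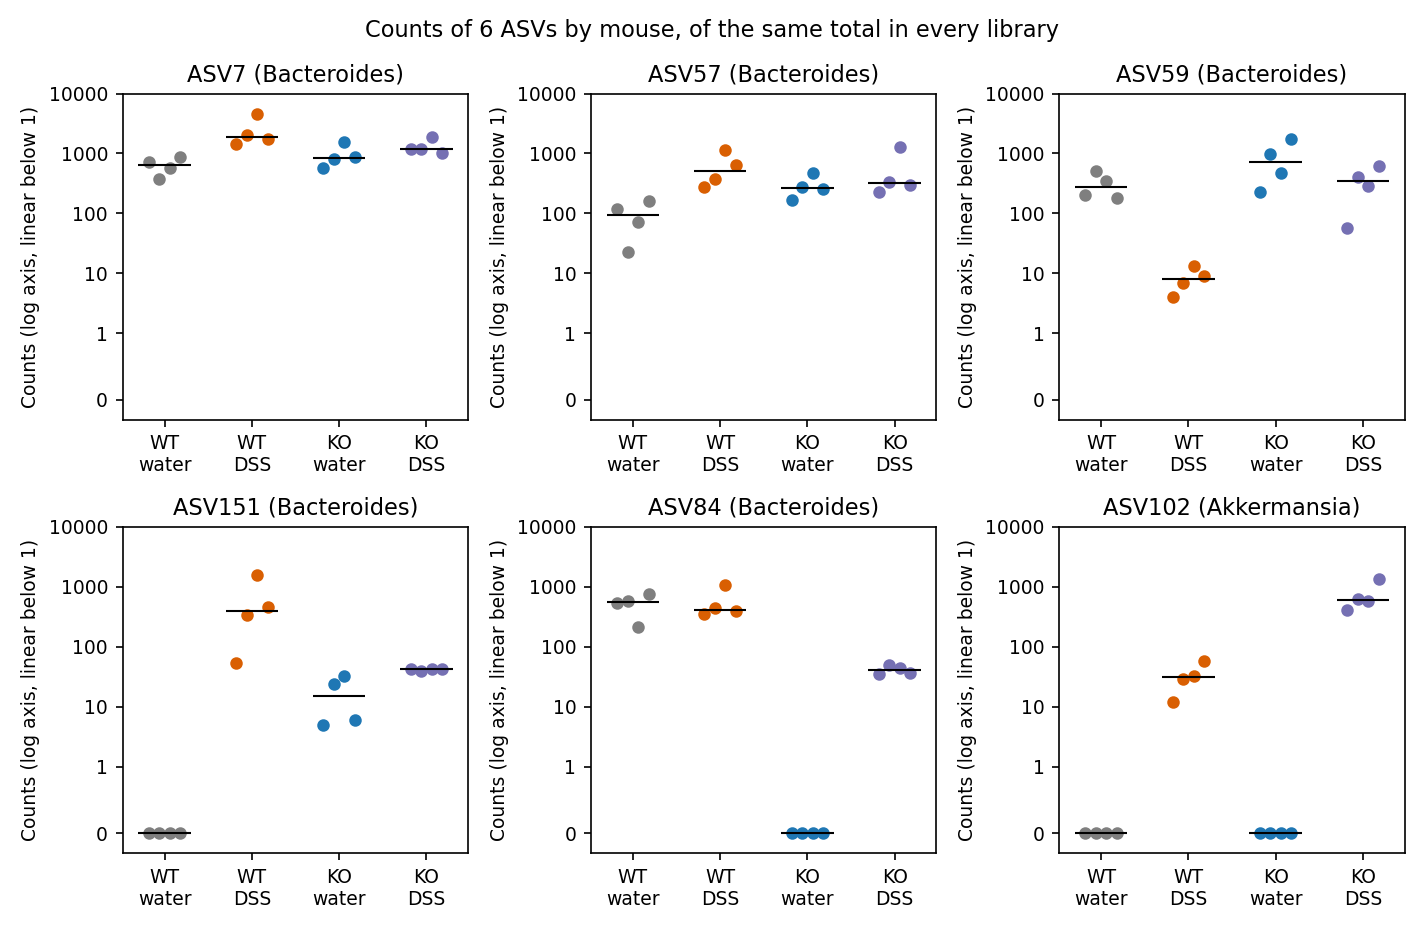
Counts of 6 ASVs in each mouse (points) with the group median (line), on a log axis that is linear below 1, out of the same total of counts in every library. ASV59 was lower in WT mice on DSS than on water, at 4 to 13 counts, and ASV151 was higher, at 53 to 1557 against 0. ASV102 of Akkermansia was above 400 counts in KO mice on DSS only.

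In KO mice on DSS Akkermansia appeared, and ASV7, ASV57 and ASV59 of Bacteroides did not pass. ASV102, which had no count in KO mice on water, had 416, 627, 573 and 1343 after DSS, a rise of at least 247-fold (adjusted p = 0.000200). In WT mice on DSS it had 12, 29, 33 and 59, a mean 4.49% of that in KO mice on DSS. ASV7 had 566, 816, 1558 and 875 counts on water and 1207, 1203, 1862 and 1027 on DSS, with overlap (adjusted p = 0.694). ASV59 had 230, 962, 466 and 1710 on water and 57, 404, 287 and 627 on DSS, 2.45-fold lower in the means and 1.61-fold without water mouse 4 (adjusted p = 0.282). ASV85 (adjusted p = 1) and ASV122 (adjusted p = 0.975) did not pass either, with means 1.03-fold lower and 1.60-fold higher on DSS.

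In KO mice 7 of 31 ASVs rose and none fell by edgeR, or 22.6%, against 13.4% of all ASVs tested (7.2% higher and 6.16% lower). The median log2 fold change was 0.88, and 0 over all. Besides ASV102 these were ASV84, ASV162 and ASV197 of Bacteroides and ASV93, ASV113 and ASV152 of Parabacteroides, all of them ASVs of WT mice, with 1 to 50 counts per KO DSS mouse. With traces under 5% set to 0, ASV84 and ASV102 remained, and with the limit at 10% ASV102 remained of the 7. None of the 7 had a count in KO water mice, so those set to 0 had none left to call in KO mice. The ASV84 level was 35, 50, 44 and 37 counts in the KO DSS mice. ASV223, at 13.7% or more of Bacteroides sartorii in every WT mouse, had no count in any KO DSS mouse, and the rarer ASV332 had 0, 0, 4 and 7.

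**Figure D4:**
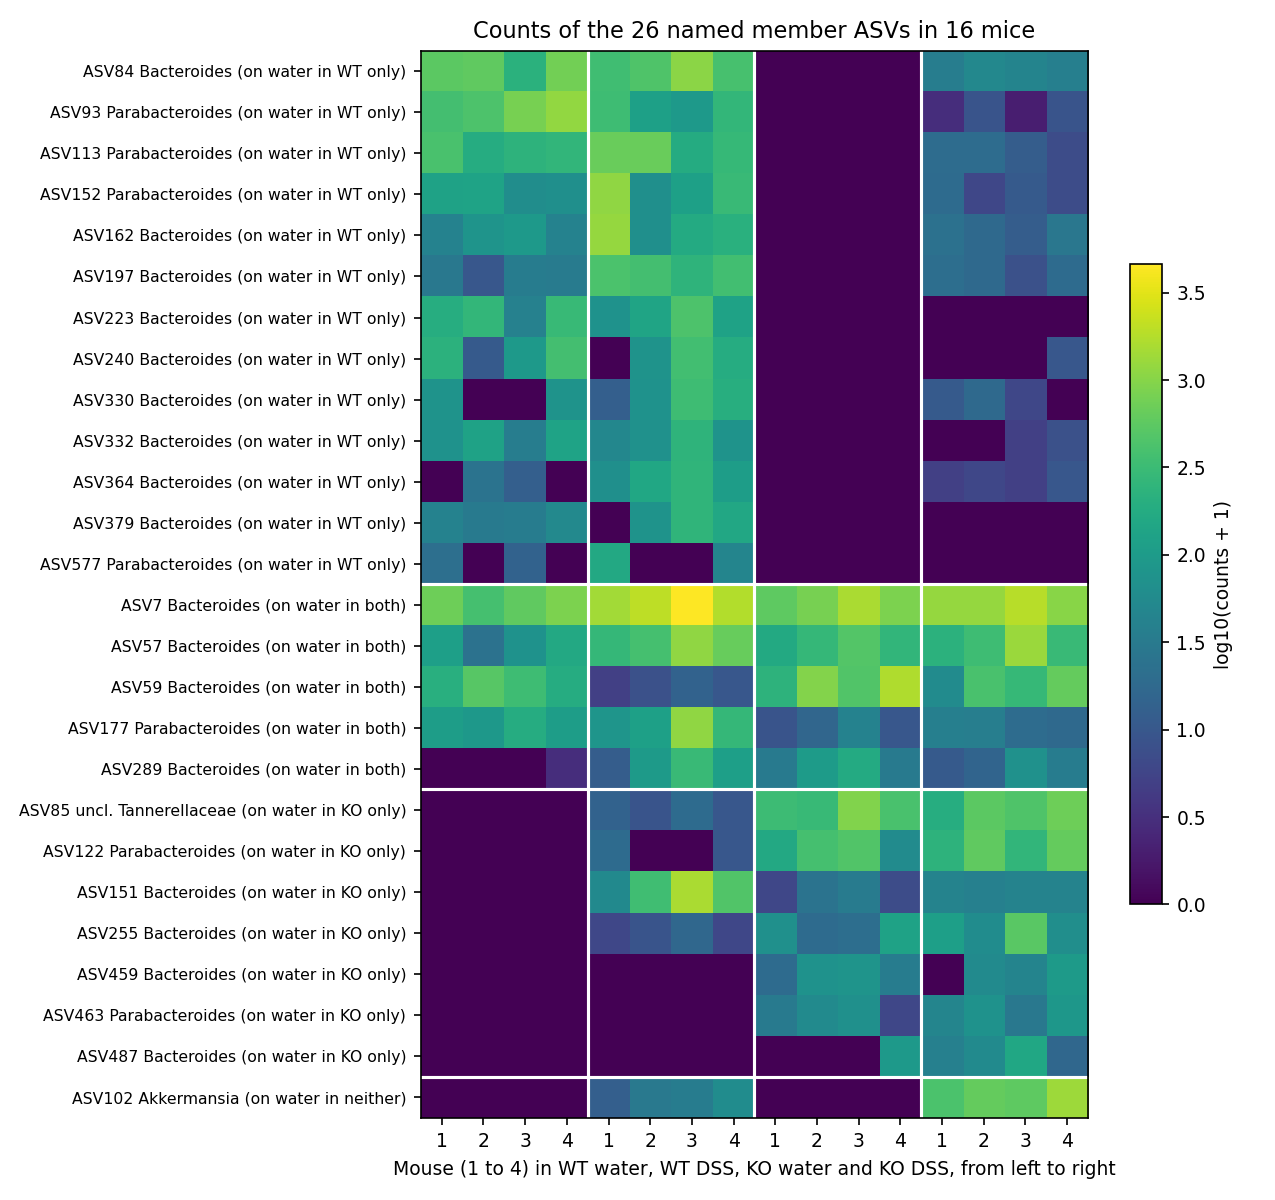
Counts of 26 named ASVs as log10(counts + 1) in the 16 mice, with ASVs ordered by the genotype in which they had counts on water. By that ordering the block of ASVs of WT mice is empty in KO water mice and that of KO mice in WT water mice. The block of WT mice is faint in KO DSS mice, while ASV151 is high in WT DSS mice.

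Under DSS most of the ASVs that differed between genotypes were those that differed on water. Of 31, 9 were higher in KO mice and 15 lower, or 77.4%, against 37.7% of all ASVs tested (19.0% higher and 18.7% lower). The median log2 fold change was -3.75, and 0 over all. Of these, 7 of the 9 higher in KO mice were among the 10 higher on water (7 of 10), and 13 of the 15 lower were among the 15 lower on water (13 of 15). Over all ASVs tested, 115 were higher in both, or 57.2% of the DSS list and 52.3% of the water list, and 142 lower in both, or 72.1% and 42.0%. Whether the overlap differs from that of other ASVs was not tested. The 2 comparisons use different mice but come from the same fit. ASV151 alone passed in opposite directions, with 5, 24, 32 and 6 counts in KO mice on water against none in WT mice (adjusted p = 0.00146), and 43, 39, 43 and 43 counts in KO mice on DSS against 53 to 1557 in WT mice. That last difference was 14.4-fold (adjusted p = 0.0158) and 6.80-fold without WT DSS mouse 3 (adjusted p = 0.0578). ASV59 was 41.7-fold higher in KO mice on DSS (adjusted p = 0.000661), a difference that did not pass on water (adjusted p = 0.114).

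The test of whether DSS acted differently in the 2 genotypes passed for 7 of 31 ASVs, or 22.6%, against 5.59% of all ASVs tested (4 of 31 with a higher value in KO mice, against 3.12%, and 3 with a lower, against 2.46%). ASV59 fell more in WT than in KO mice (interaction log2 3.91, SE 1.11, adjusted p = 0.0495), a call that stood close to the threshold and was lost with TMM scaling (adjusted p = 0.0817), with centred log-ratios (0.0531) and without any of 13 of the 16 mice, each left out in turn. ASV151 and ASV289 passed the interaction test (adjusted p = 0.00125 and 0.00661) and rose in WT mice. In KO mice ASV151 was 2.51-fold higher and ASV289 2.63-fold lower on DSS, which did not pass (adjusted p = 0.442 and 0.544). The fitted size of these 2 depends on the small prior count edgeR adds, since WT water mice were at or near 0. The calls of ASV85, ASV93 and ASV113 rested on traces, and that of ASV84 on its 35 to 50 counts in KO DSS mice, since they did not pass with traces under 5% or, for ASV84, under 10% set to 0. The WT DSS counts of ASV59 were also set to 0 at the limit of 5%, which widens its difference and so does not test its call. For Bacteroides as a genus the interaction did not pass (log2 -1.22, SE 0.62, adjusted p = 0.280).

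Other bacteria able to use mucin or dietary glycans were read from a list of 10 genus-level groups, of which 6 were tested. Of these 6, 2 passed for DSS in WT mice and 5 for DSS in KO mice, 3 between genotypes on water and 2 on DSS, against 32.0%, 32.8%, 40.2% and 20.5% of all 122 groups. In WT mice on DSS Muribaculum and unclassified Muribaculaceae, polysaccharide degraders typical of the mouse gut, fell (0.768% ± 0.142 to 0.0653% ± 0.0643, adjusted p = 0.00301, and 26.4% ± 2.66 to 17.8% ± 3.89, adjusted p = 0.0481) and none rose. In KO mice they fell as well (31.9-fold and 1.67-fold), with Bifidobacterium (0.586% ± 0.508 to 0.00829% ± 0.0145, adjusted p = 0.00448), while Odoribacter rose 4.28-fold to 2.46% ± 1.22 (adjusted p = 0.0171) and Alloprevotella went from no count to 0.0879% ± 0.00259. Alloprevotella is another genus of WT mice, at 2.74% ± 0.809 on water and 2.58% ± 2.25 on DSS. Its mean in KO mice on DSS lay 29.4-fold below that in WT mice on DSS, or at less than 5% of it, as for the traces above. The list's median log2 fold change was -0.33 in WT and -0.43 in KO mice, against -0.28 and 0 over all groups. Between genotypes 1 rose and 2 fell on water and 1 rose and 1 fell on DSS, with Alistipes 3.33-fold and 3.13-fold higher in KO mice (adjusted p = 0.000301 and 0.00123).

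The group means of Akkermansia were most like those of Escherichia-Shigella and Prevotellaceae_UCG-001 among 64 other genus-level groups with at least 0.1% in a group mean. Likeness was the root mean square difference of the 4 group means as log2(percent + 0.01), each less its own mean, and came to 0.90 and 1.09. Escherichia-Shigella held 0.0174%, 0.0231%, 0.0140% and 0.532% in WT water, WT DSS, KO water and KO DSS mice. Bacteroides was nearest to Lachnospiraceae_NK4A136_group (0.43) and unclassified Oscillospiraceae (0.58), and Parabacteroides to Candidatus_Saccharimonas (0.33) and Odoribacter (0.53). For Tannerellaceae without a genus name the nearest, ASF356 (1.38) and Intestinimonas (1.47), were far off.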

How the data were processed

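The authors deposited 2 tables with the same 16S counts of ASVs, 1 of them with taxonomy. Per the file headers the counts were made even, at the same total in all 16 libraries, while the original depth, amplicon region, ASV caller and taxonomy database are not stated there. The submitters' processing notes name the mouse builds GRCm38 and mm10, which do not bear on bacterial counts. Intervals and floors cover counting error only.

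Counts were summed to 146 genus-level groups, with ASVs lacking a genus name under their lowest named rank. Features with at least 10 counts and counts in at least 3 libraries were tested with edgeR 4.0.16 (glmQLFit, robust, in R 4.3.3) scaled by library total, with all 16 mice in 1 fit and an FDR of 0.05. The counts entered as deposited. Tested on simulated data, the script found only part of the changes put in and made more false calls than the FDR set, so calls near the threshold are less sure than their adjusted p, and changes that did not pass may have been missed. Folds divide mean shares, taken against 3 counts per library where a group was at 0. Exact permutation tests used 70 arrangements (scipy 1.17.1), and p-values measure the spread between these mice.

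Other settings tried were DESeq2 1.42.0, TMM or median-ratio scaling, limma 3.58.1 with centred log-ratios (0.5 added), no filter or 6 libraries, a replicate block, the compared groups alone, traces set to 0, and leaving out each mouse. The limit of 10% for traces was chosen after seeing the data. The ASVs, lists and tests were chosen with earlier results of these data known. By rule 26 ASVs were named: those whose mean reached 0.1% in any group, and in each comparison the 3 called ASVs that changed most either way. A few others, such as ASV1600 and ASV927, were named after their values were seen.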

Additional observations from a re-analysis of the deposited data

Results flagged for a closer look

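A mouse stood far from the other 3 of its group in 9 of 80 sets of values looked at. A chance rate of about 1 in 20 would hold for independent sets with an even spread. These sets overlap, as a genus holds its ASVs, so no excess can be read from the 9. In WT mice on DSS, mouse 3 held 11.4% Bacteroides (next 4.96%) and 13.1% of counts in the 47 ASVs together (next 6.59%), with 1.10% ASV84 (next 0.459%) and 0.251% ASV332 (next 0.0767%). In the same group mouse 1 held 1.24% ASV162 (next 0.217%). In KO mice on DSS, mouse 3 held 1.35% ASV57 (next 0.345%) and 0.548% ASV255 (next 0.118%), and mouse 2 had 0.0404% ASV151 where the other 3 had 0.0446%, a gap of 4 counts. In KO mice on water, mouse 4 held 0.0974% ASV487 and the others none.

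The DSS effect differed between genotypes, by edgeR's interaction test, in 8 results. The log2 interaction (KO minus WT) was 3.91 for ASV59, -10.92 for ASV151 and -9.11 for ASV289, and these calls did not end with traces set to 0. The limit of 5% set the WT DSS counts of ASV59 to 0 (mean 8.25, against 343.75 in KO DSS mice). The limit of 10% set the KO DSS counts of ASV151 to 0. Both changes widen the difference tested, so these settings could not test the calls of ASV59 or, at 10%, ASV151. It was 8.28 for ASV84, 7.06 for ASV93, 6.06 for ASV113, -6.64 for ASV85 and -6.78 for Tannerellaceae without a genus name, whose calls ended with traces set to 0 at the limit of 5% or, for ASV84, of 10%. Except for ASV59, a group at or near 0 enters each value, so its size depends on the prior count.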

How the results depend on the processing

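The called ASVs among the 31 numbered 10 for DSS in WT mice, and 6 with a replicate block, with traces set to 0, and with traces under 10% set to 0. For DSS in KO mice 7 became 2 and 3 under the 2 trace limits, and for the interaction 7 became 4 under both. At the limit of 10% the 3 for DSS in KO mice held 1 of the 7, with ASV151 and ASV177 gained. The 4 for the interaction held 3 of the 7 there, with ASV177 gained. That limit set the KO DSS counts of ASV151 and ASV177 to 0, so these gains came from the setting. With the replicate block 21 (of 25) and 18 (of 24) were called between genotypes on water and DSS. No sign was seen that the mouse numbers pair the mice: same-numbered mice of 2 groups correlated between -0.095 and 0.0636 in 24 pairs. Such a check can miss a weak pairing. Of the 4 genus-level groups, those called for DSS in WT mice went from 3 to 1 under both trace limits, those between genotypes on water from 2 to 1 with median-ratio size factors and with the replicate block (1 to 2 with each mouse left out), and those for the interaction from 1 to 2 with limma on centred log-ratios and to 0 under both trace limits.

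Changes of direction were found in values that had not passed, apart from the interactions of ASV84 (-0.12 with traces under 10% set to 0) and ASV113 (-0.76 under both limits), where the traces themselves were removed. As log2 values, Bacteroides between genotypes on water was -0.36 with TMM scaling, -0.057 with the replicate block and -0.10 to 0.31 with each mouse left out, and for DSS in KO mice -0.12 to 0.39 with each left out. Tannerellaceae without a genus name for DSS in KO mice was 0.20 with TMM, 0.084 with the block and -0.30 to 0.48 with each left out. The Parabacteroides interaction was -0.088 with centred log-ratios. The family Tannerellaceae was -0.60 for DSS in KO mice with centred log-ratios, between genotypes on water 0.16 with median-ratio size factors and with DESeq2 and 0.96 with centred log-ratios, and for the interaction 0.18 with TMM and -0.28 to 0.44 with each left out. The effective number of Bacteroides ASVs changed by -0.622 for DSS in WT mice as inverse Simpson (-0.337 to 0.671 with each left out) and by -0.123 for DSS in KO mice with traces under 10% set to 0. That of Tannerellaceae differed between genotypes on DSS by -0.675 to 0.225 with each left out. The cause of these changes was not tested. With each mouse left out the called ASVs numbered 8 to 11, 7 to 8, 21 to 25, 17 to 24 and 6 to 8 in the 5 comparisons. Another scaling moved the median log2 of all ASVs for DSS in WT mice by 0 to 0.53, and that of all genus-level groups between genotypes on water by -0.39 to 0.91. At this depth a count of 0 allows a share of up to 0.00311%.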
